A study of Mus musculus with 6 samples.

Results

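Neutrophil granule genes were followed in the transcriptomes of long-term haematopoietic stem cells (LT-HSC), in 6 libraries of sorted mouse bone marrow cells. The set holds 32 genes named by symbol: 14 primary granule and progenitor genes, called early here, and 18 secondary granule and mature neutrophil genes, called late. Of these, 31 were found by symbol, 14 early and 17 late, and Ly6g was not analysed here. All 31 were among the 12008 genes that passed the filter on low values, each with at least 1 normalized CPM in at least 3 libraries. The genes were chosen with their levels in these same libraries known, so their levels, folds and genotype differences are a description and support nothing on their own.

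Each library came from bone marrow of 4 pooled, age-matched C57BL/6 mice. Cells were depleted of lineage-positive cells and sorted as Sca-1 and Kit positive (LSK), CD150 positive and CD34, CD48 and Flk2 negative, with at least 10000 cells a library. Mice of the Itpkb-/- group carried the ENU-induced allele Ms T-less of Itpkb, the gene of inositol-trisphosphate 3-kinase B (3 libraries), and mice of the wild-type group were their littermates (3 libraries). No treatment is given for either group, and the labels name no cell type to which the mutation is restricted. ENU is a point mutagen, so the Itpkb transcript need not be lost. It was at 10.2, 14.0 and 18.2 normalized CPM across Itpkb-/- libraries 1 to 3 and 22.1, 23.6 and 25.1 across wild-type libraries 1 to 3. The unit, normalized CPM, is a read count divided by 1 factor per library, set by the authors; the values in this text are given in the order of libraries 1, 2 and 3. Libraries held 4024203 to 7470329 reads, and 3 reads, the detection floor used here, were worth 0.393 to 0.746 normalized CPM.

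Neutrophils form in the marrow through ordered stages, and each stage fills a different kind of granule. Promyelocytes make primary (azurophil) granules, which hold myeloperoxidase and serine proteases. Myelocytes and metamyelocytes then make secondary (specific) granules with lactoferrin and cathelicidin, later cells make gelatinase granules, and the mature cell carries S100 proteins in its cytosol. The factors PU.1, C/EBP-alpha and C/EBP-epsilon are known regulators of granule genes. LT-HSC sit far upstream. Primary granule genes such as Mpo are known to be highly transcribed in granulocyte-monocyte progenitors and only at low levels in multipotent cells.

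The start-site regions of early and late genes are shown first, and their link to the levels across libraries was not tested. Each is 300 bases from RefSeq on build GRCm38.p6, read 5′ to 3′ on the gene's strand, from 250 bases before the start site to 50 bases after it. Capitals mark exact matches, on either strand, to TTNNGCAA, a form of the C/EBP site, and to GAGGAAG, a form of the PU.1 site. For the primary granule proteases the regions are Elane (chr10:79886062-79886361, plus strand), Prtn3 (chr10:79879417-79879716, plus strand) and Ctsg (chr14:56102525-56102824, minus strand). For the secondary granule genes they are Lcn2 (chr2:32387690-32387989, minus strand), Ngp (chr9:110419558-110419857, plus strand) and Ltf (chr9:111019042-111019341, plus strand).
Elane: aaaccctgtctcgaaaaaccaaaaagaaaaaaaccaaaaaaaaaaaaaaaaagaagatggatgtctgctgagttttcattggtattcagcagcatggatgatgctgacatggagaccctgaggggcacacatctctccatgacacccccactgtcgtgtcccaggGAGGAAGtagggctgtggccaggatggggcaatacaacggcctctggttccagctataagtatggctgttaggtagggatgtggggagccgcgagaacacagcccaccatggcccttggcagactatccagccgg
Prtn3: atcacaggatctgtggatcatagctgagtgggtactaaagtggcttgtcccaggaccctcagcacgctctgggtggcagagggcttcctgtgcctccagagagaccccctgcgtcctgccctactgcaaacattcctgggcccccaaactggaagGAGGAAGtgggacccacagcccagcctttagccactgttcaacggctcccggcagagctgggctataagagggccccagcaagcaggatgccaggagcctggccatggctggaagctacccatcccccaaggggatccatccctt
Ctsg: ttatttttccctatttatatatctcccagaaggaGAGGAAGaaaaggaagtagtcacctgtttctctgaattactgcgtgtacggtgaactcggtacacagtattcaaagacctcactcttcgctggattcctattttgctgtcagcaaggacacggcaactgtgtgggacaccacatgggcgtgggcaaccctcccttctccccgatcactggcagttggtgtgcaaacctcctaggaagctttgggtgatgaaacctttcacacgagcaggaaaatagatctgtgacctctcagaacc
Lcn2: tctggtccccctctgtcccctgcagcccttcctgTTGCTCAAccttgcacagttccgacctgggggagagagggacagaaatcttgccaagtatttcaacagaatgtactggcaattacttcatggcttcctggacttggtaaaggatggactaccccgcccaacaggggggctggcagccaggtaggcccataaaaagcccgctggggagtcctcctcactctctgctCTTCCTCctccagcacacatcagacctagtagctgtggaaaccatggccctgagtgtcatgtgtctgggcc
Ngp: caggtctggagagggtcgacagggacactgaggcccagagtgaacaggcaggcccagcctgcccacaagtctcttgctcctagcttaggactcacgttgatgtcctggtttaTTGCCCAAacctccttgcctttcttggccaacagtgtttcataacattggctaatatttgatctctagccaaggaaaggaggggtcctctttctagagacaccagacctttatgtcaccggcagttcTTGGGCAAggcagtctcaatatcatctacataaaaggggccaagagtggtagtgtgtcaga
Ltf: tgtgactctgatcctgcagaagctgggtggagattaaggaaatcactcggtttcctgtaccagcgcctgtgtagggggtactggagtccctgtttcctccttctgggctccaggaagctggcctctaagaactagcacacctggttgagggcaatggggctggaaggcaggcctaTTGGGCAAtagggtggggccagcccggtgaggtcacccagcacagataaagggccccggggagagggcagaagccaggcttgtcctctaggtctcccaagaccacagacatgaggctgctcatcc

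Of the 31 genes, 26 had such a region, 11 early and 15 late. The PU.1 letters were found in 6 of 11 early and 6 of 15 late regions, against 13.5% of 27025 mouse start-site regions of the same length. All 4 primary granule genes, Mpo, Elane, Prtn3 and Ctsg, were among those 6. The C/EBP letters were found in 4 of 11 early and 7 of 15 late regions, against 10.8% of all regions. The 7 late ones were Fcnb, Lcn2, S100a9, Mmp8, Ngp, Ltf and Retnlg, and the 4 early ones were Cst7, Clec12a, Dmkn and Ms4a3. No primary granule gene held the C/EBP letters in this window. For comparison, TGTGGT, a form of the RUNX site, was in 4 early and 4 late regions (16.9% of all), and AACTG, a form of the MYB site, in 8 and 9 (44.8% of all). Matches to different motifs overlapped in 1 region, that of Dmkn. The counts are descriptive, and a match is not evidence of binding.

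Within the set, most late genes had a different order of libraries from the early genes. For every early gene, Itpkb-/- library 2 lay well above the other 5. Most late genes were high in Itpkb-/- libraries 1 and 2, intermediate in wild-type libraries 1 and 2, and low in the libraries numbered 3 of both genotypes. All 31 genes had their lowest value in a library numbered 3, which was true of 26.6% of the 12008 genes tested. All 14 early genes were highest in Itpkb-/- library 2, as were 10 of 17 late genes, against 21.3% of all genes tested. These libraries stand apart in the genes by which the set was chosen, so the comparison of genotypes below is also given without Itpkb-/- library 2. In bulk libraries a change in the number of cells of a type cannot be told apart from a change in RNA per cell.

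**Figure D1:**
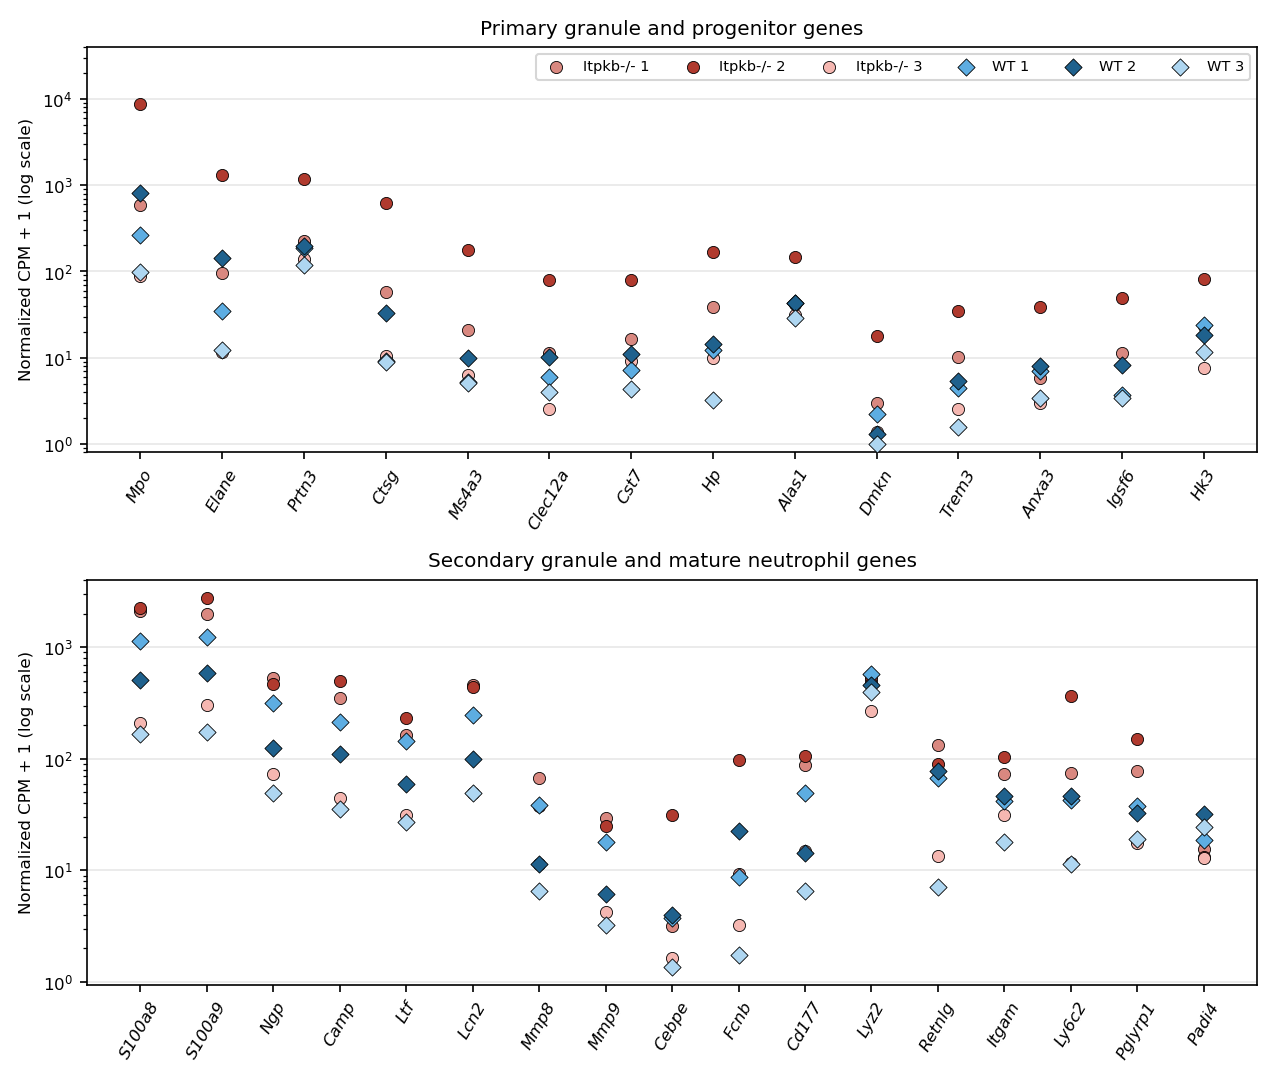
Level of each of the 31 genes in each of the 6 libraries, as normalized CPM + 1 on a log axis; circles are Itpkb-/- libraries and diamonds wild-type libraries. Itpkb-/- library 2 lies above every other library for all 14 early genes, while late genes such as S100a8 have Itpkb-/- libraries 1 and 2 close together.

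Mpo, which encodes myeloperoxidase, the enzyme that makes hypochlorous acid, was at 588, 8728 and 88.5 normalized CPM across Itpkb-/- libraries 1 to 3 and 263, 817 and 97.7 across wild-type libraries 1 to 3. Library 2 was the highest of each genotype and library 3 the lowest, and the genotypes overlapped. Mpo alone made up 0.856% of the signal of Itpkb-/- library 2 and 0.00904% to 0.0829% of the other 5 libraries. Per kilobase of annotated exon it ranked 18th of the genes with an annotated length in Itpkb-/- library 2 and 1739th in Itpkb-/- library 3.

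The serine proteases of the same granules followed this order with different spans. Elane, neutrophil elastase, was at 95.6, 1303 and 10.7 normalized CPM across Itpkb-/- libraries and 33.6, 143 and 11.2 across the wild type, a 121-fold span within the Itpkb-/- group. Ctsg, cathepsin G, was at 56.8, 619.5 and 9.44 across Itpkb-/- libraries and 8.21, 32.3 and 7.82 across the wild type. Prtn3, proteinase 3, was at 222, 1192 and 137 across Itpkb-/- libraries and 184, 199 and 119 across the wild type. Prtn3 thus lay above 100 normalized CPM in every library and spanned 8.69-fold between Itpkb-/- libraries 2 and 3, less than its neighbour Elane. Prtn3 (chr10:79874476-79883174) and Elane (chr10:79886247-79888215) are adjacent genes on the plus strand of chromosome 10, in build mm10 with GENCODE M21.

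Genes of granulocyte progenitors were, like the primary granule genes, highest in Itpkb-/- library 2, and all but Hk3 and Dmkn had wild-type library 2 as the highest of the wild type. Ms4a3, which encodes a membrane protein of granulocyte-monocyte progenitors, was at 20.04, 175 and 5.24 normalized CPM across Itpkb-/- libraries and 4.23, 8.82 and 4.10 across the wild type. Cst7, which encodes cystatin F, an inhibitor of the protease-activating cathepsin C, was at 15.7, 79.4 and 8.26 across Itpkb-/- libraries and 6.22, 10.2 and 3.35 across the wild type. In both genes Itpkb-/- library 2 was by far the highest, Itpkb-/- library 1 also lay above every wild-type library, and Itpkb-/- library 3 lay within the wild-type range. The other 8 progenitor genes were likewise highest in Itpkb-/- library 2. Hp, haptoglobin, which binds free haemoglobin, ran from 2.23 in wild-type library 3 to 166 in Itpkb-/- library 2. Clec12a, an inhibitory C-type lectin receptor, ran from 1.57 to 79.6, and Igsf6, an immunoglobulin superfamily member, from 2.42 to 48.8. Anxa3, an annexin, ran from 1.97 to 37.9, and Trem3, an activating myeloid receptor of mice, from 0.558 to 33.9. Hk3, a hexokinase of myeloid cells, ran from 6.68 to 79.7, and Alas1, the housekeeping enzyme that starts haem synthesis, from 27.6 to 147. Dmkn, dermokine, a secreted protein known from skin, was at 16.8 (108 reads) in Itpkb-/- library 2 and at 0 to 9 reads elsewhere, with 3 libraries at or under the floor of 3 reads. Itpkb-/- library 2 exceeded the next highest library by 3.48-fold (Hk3) to 10.9-fold (Ctsg) over the 14 early genes, with a median of 5.38-fold.

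Such an excess in 1 library was rare among all genes. With 1 added to each value, 104 of 12008 genes tested (0.866%) were at least 2-fold higher in Itpkb-/- library 2 than in every other library, and 17 of these were among the 31 genes. They were the 14 early genes and Cebpe, Fcnb and Ly6c2 of the late group. At least 4-fold, 29 genes remained (0.242%), 14 of them in the set. In each of the other 5 libraries between 6 and 43 genes stood out by 2-fold and none of the 31 genes was among them. The set was chosen on this pattern, so the shares are not evidence for it. Outside the set, the 10 genes with the largest excess in Itpkb-/- library 2 among those with a mean of at least 4 normalized CPM were Vcam1, Atp8b4, Dgat2, Mgam, Prom1, Sgms2, Prss57, Sema4a, Fcgr2b and C3. Vcam1, an adhesion molecule known from stroma, endothelium and marrow macrophages, was at 40.7 in Itpkb-/- library 2 and at 0.186 to 1.94 elsewhere. C3, the third complement component, was at 244 there and at 4.28 to 45.1 elsewhere.

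The secondary granule genes had another order. Ngp, neutrophilic granule protein, was at 532, 467 and 71.4 normalized CPM across Itpkb-/- libraries and 313, 124 and 48.2 across the wild type. Camp, the cathelicidin antimicrobial peptide gene, was at 348, 502 and 43.5 across Itpkb-/- libraries and 213, 110.4 and 34.8 across the wild type. Ltf, which encodes the iron-binding protein lactoferrin, was at 163, 232 and 30.5 across Itpkb-/- libraries and 145, 58.3 and 26.1 across the wild type. In all 3 genes Itpkb-/- libraries 1 and 2 were the highest and wild-type library 1 came next. Lcn2, lipocalin 2, which binds bacterial siderophores, was at 463, 443 and 48.4 across Itpkb-/- libraries and 246, 99.7 and 48.4 across the wild type, so the libraries numbered 3 were equal to the printed precision.

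The metalloproteinase genes Mmp8 and Mmp9 were highest in Itpkb-/- library 1, not library 2, as were Ngp and Lcn2. Mmp8, neutrophil collagenase, was at 66.4, 36.8 and 10.4 normalized CPM across Itpkb-/- libraries and 37.3, 10.3 and 5.58 across the wild type. Mmp9, gelatinase B, was at 28.3, 24.2 and 3.28 across Itpkb-/- libraries and 16.9, 5.08 and 2.23 across the wild type. Retnlg, a resistin-like gene of mouse neutrophils, was also highest in Itpkb-/- library 1, at 133, 89.4 and 12.5 across Itpkb-/- libraries and 65.9, 77.1 and 6.14 across the wild type. Library 3 was the lowest of its genotype for Mmp8, Mmp9 and Retnlg. Pglyrp1, a peptidoglycan recognition protein of granules, ran from 16.6 in Itpkb-/- library 3 to 148 in Itpkb-/- library 2, and Cd177, a neutrophil surface glycoprotein, from 5.58 to 104.

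S100a8 and S100a9, whose products pair as calprotectin in the neutrophil cytosol, had high levels in every library. S100a8 was at 2132, 2232 and 207 normalized CPM across Itpkb-/- libraries and 1149, 511 and 165 across the wild type. S100a9 was at 2003, 2759 and 300.3 across Itpkb-/- libraries and 1236, 587 and 175 across the wild type. Per kilobase of exon S100a9 ranked 3rd in Itpkb-/- library 2 and 132nd in wild-type library 3. Itgam, which encodes the integrin alpha chain CD11b, was at 71.7, 104 and 30.3 across Itpkb-/- libraries and 41.3, 45.3 and 17.1 across the wild type. Its span was narrower, with a 3.42-fold difference between Itpkb-/- libraries 2 and 3.

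Cebpe, Fcnb and Ly6c2, placed in the late group, varied like the early genes. Cebpe, the factor C/EBP-epsilon that turns on secondary granule genes, was at 2.18, 30.1 and 0.655 normalized CPM across Itpkb-/- libraries and 2.74, 2.99 and 0.372 across the wild type, from 2 to 194 reads. Fcnb, ficolin B, a lectin of immature myeloid cells, was at 8.28, 97.0 and 2.23 across Itpkb-/- libraries and 7.71, 21.4 and 0.745 across the wild type. Ly6c2, a surface antigen gene of monocytes and immature granulocytes, ran from 10.4 in wild-type library 3 to 363 in Itpkb-/- library 2. Ly6c2 has a near-identical neighbour, Ly6c1, and the split of reads between the copies is uncertain. For these 3 genes, as for the early ones, Itpkb-/- library 2 was at least 2-fold above every other library.

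Lyz2 and Padi4 did not share either order. Lyz2, lysozyme of myeloid cells, was at 503, 544 and 265 normalized CPM across Itpkb-/- libraries and 576, 455 and 396 across the wild type, a level that was high in every library and spanned less than that of any other member except Padi4 within the Itpkb-/- group. Lyz2 has a near-identical neighbour, Lyz1, and its reads carry the same uncertainty. Padi4, the enzyme that citrullinates histones in neutrophils, was at 14.6, 12.3 and 11.9 across Itpkb-/- libraries and 17.7, 30.9 and 23.3 across the wild type. It was the only member whose genotypes did not overlap, with every Itpkb-/- library below every wild-type library, where 21.3% of all genes tested did not overlap.

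The ratio of library 2 to library 1 differed between most early and late genes in the Itpkb-/- group, while in the wild type the stages overlapped. Between Itpkb-/- libraries it was 3.56 (Alas1) to 14.8 (Mpo) over the 14 early genes, with a median of 6.57. Over the 17 late genes its median was 1.20, and 14 of them, all but Cebpe (13.8), Fcnb (11.7) and Ly6c2 (4.97), lay between 0.554 (Mmp8) and 1.95 (Pglyrp1). Between wild-type libraries it was 0.240 (Dmkn, 2 against 5 reads) to 4.25 (Elane) for early genes, with a median of 1.44, and 0.276 (Mmp8) to 2.77 (Fcnb) for late genes, with a median of 0.519. Late Padi4 (1.75) and Retnlg (1.17) lay above early Prtn3 (1.08), Alas1 (1.01) and Hk3 (0.758). Among all genes tested the medians of these ratios were 1.00 and 1.01. Library 2 exceeded library 1 in both genotypes for 12 of 14 early and 4 of 17 late genes (32.3% of all genes). It was below library 1 in both for 0 early and 4 late genes, Ngp, Lcn2, Mmp8 and Mmp9 (30.2% of all genes). Library 1 exceeded library 3 in both genotypes for 30 of 31 genes, all but Padi4, against 29.8% of all genes tested. The labels do not say whether a library number marks a shared day, litter or sort.

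**Figure D2:**
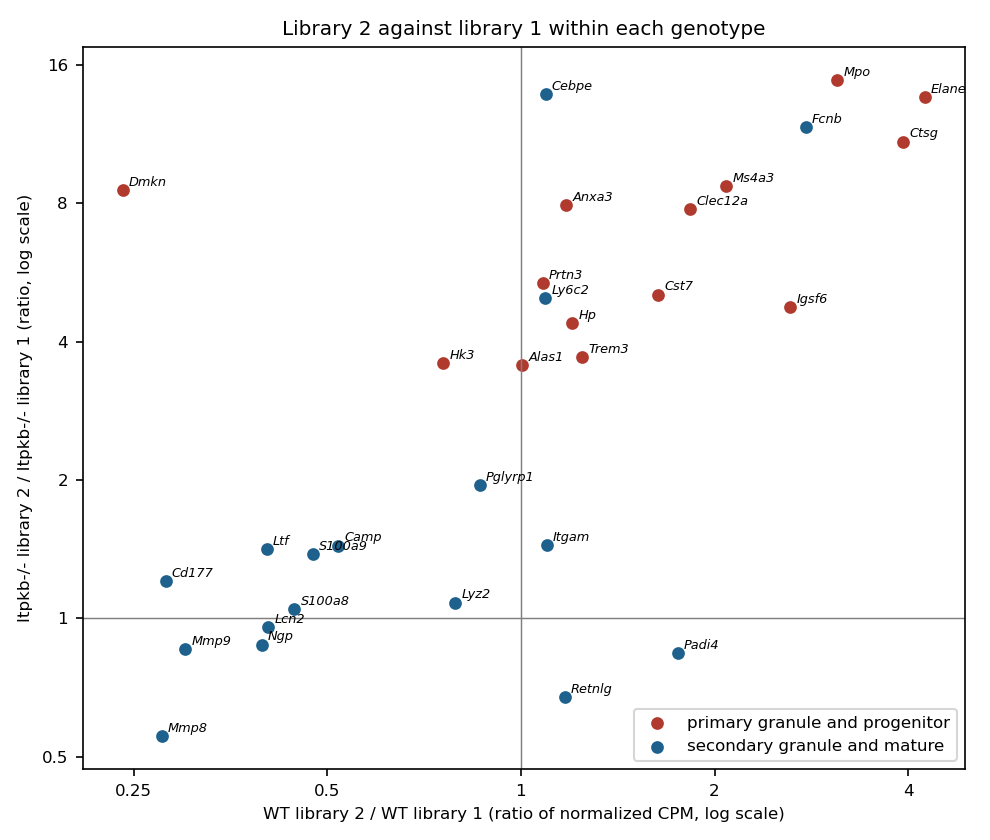
Ratio of library 2 to library 1 for each of the 31 genes, in wild-type (x axis) and Itpkb-/- libraries (y axis), both on log scales; red points are early genes and blue points late genes. Early genes have y ratios of 3.56 to 14.8, and all late genes but Cebpe, Fcnb and Ly6c2 have y ratios of at most 1.95; the low x value of Dmkn rests on 2 and 5 reads.

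On average over the early genes, log2(normalized CPM + 1) was 4.83, 7.44 and 3.16 in Itpkb-/- libraries 1 to 3 and 3.81, 4.43 and 2.93 in wild-type libraries. For the late genes the averages were 6.86, 7.47 and 4.60 in Itpkb-/- and 6.30, 5.71 and 4.26 in wild-type libraries. Within same-numbered pairs the Itpkb-/- library was higher in all 3 pairs at both stages. The early difference on the log2 scale was 1.02, 3.02 and 0.23 in pairs 1, 2 and 3, and the late difference was 0.56, 1.76 and 0.34. The mean difference fell from 1.42 to 0.27 (early) and from 0.89 to 0.31 (late) without Itpkb-/- library 2, and the late value to 0.30 without wild-type library 3. Together the 31 genes made up 0.753%, 2.05% and 0.142% of the signal of Itpkb-/- libraries 1 to 3 and 0.478%, 0.359% and 0.131% of that of wild-type libraries.

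**Figure D3:**
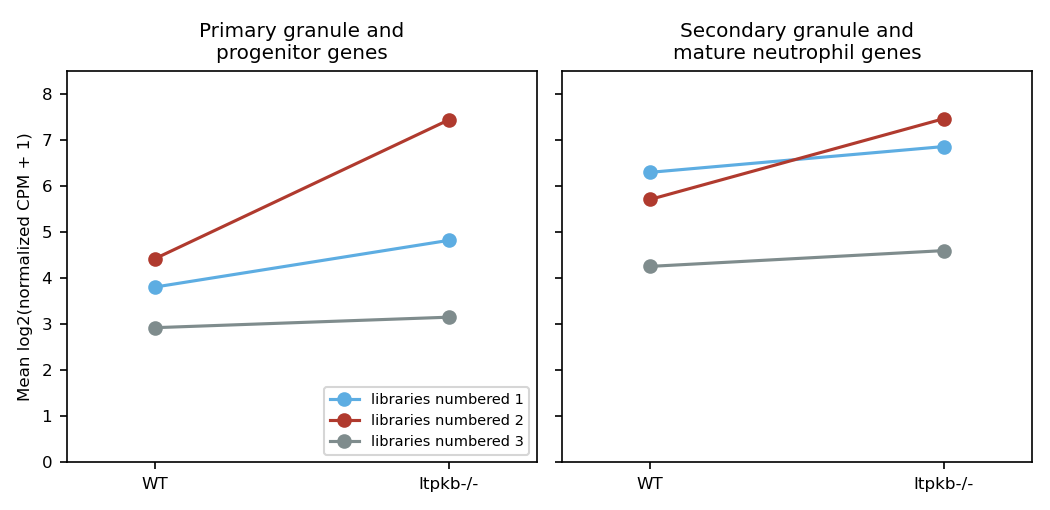
Mean log2(normalized CPM + 1) of the 14 early and 17 late genes per library; each line joins the wild-type and Itpkb-/- libraries of the same number. All 6 lines rise, the steepest being the early genes of the libraries numbered 2, from 4.43 to 7.44.

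Between genotypes, 29 of 31 genes had a positive log2 difference, Itpkb-/- minus wild type, against 50.2% of all genes tested, with a median of 1.51 for early and 1.038 for late genes and 0.0018 for all genes. The libraries of each genotype were widely spread, and none of the 29 passed the test across all genes (limma on log2(value + 1), adjusted p of at most 0.15). Of the set, 0 genes rose and 1 fell, where 2.27% of all genes tested rose and 3.24% fell (5.5% in all). With edgeR likewise 0 rose and 1 fell, against 2.45% and 3.58% of all genes tested (6.02% in all). With DESeq2, Ctsg and Ms4a3 rose and Padi4 fell, against 3.24% and 3.57% (6.82% in all). An unadjusted p under 0.05 was found for 4 genes with limma and 1 with edgeR. Since the genes were chosen on this contrast, nothing is read from these counts. The largest differences were in Ctsg (log2 difference 2.37, SE 1.11, limma adjusted p = 0.339), Hp (2.28, SE 0.84, adjusted p = 0.218) and Ms4a3 (2.15, SE 0.90, adjusted p = 0.278). For Mpo the means were 3135 ± 4851 and 393 ± 377 normalized CPM (SD, n = 3 each). For S100a8 they were 1524 ± 1141 and 608 ± 499. In both the SD of the Itpkb-/- group exceeded the difference of the means.

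Padi4 was the gene that fell, from 24.0 ± 6.67 to 12.9 ± 1.45 normalized CPM (SD, n = 3 each; log2 difference -0.81, SE 0.25, limma adjusted p = 0.144). The value lies close to the limit, and the adjusted p reached 0.376 without wild-type replicate 3, 0.343 without wild-type replicate 2, 0.310 without Itpkb-/- replicate 2 and 0.237 without Itpkb-/- replicate 3. With no filter on low values it was 0.213.

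When same-numbered libraries were treated as pairs (the replicate block), 24 of the 31 genes rose, 10 early and 14 late, and 1 fell (limma), against 9.15% and 8.97% of all genes tested (18.1% in all). The early genes that rose were the 4 primary granule genes with Ms4a3, Cst7, Hp, Dmkn, Trem3 and Igsf6, among them Hp (blocked adjusted p = 0.000602), Cst7 (0.00500) and Ctsg (0.00565). Late genes included S100a9 (0.00167), Ngp (0.00241), Itgam (0.00245) and Cd177 (0.00346). Clec12a, Alas1, Anxa3, Hk3, Cebpe and Lyz2 did not pass. The edgeR test with the same pairing called fewer, 11 higher and 1 lower, against 9.67% and 8.94% of all genes tested (18.6% in all), and none of the 4 primary granule genes was among them. Cst7, Hp, Dmkn, Trem3, Igsf6, Mmp8, Mmp9, Fcnb, Retnlg and Itgam were called higher by both paired tests. Same-numbered pairs were all higher in Itpkb-/- cells for 20 genes, 8 early and 12 late, against 21.8% of all genes tested. No label gives the pairing, which was taken from correlations in these same libraries. The genes were also chosen with their levels known, so nothing is read from the paired counts and p-values.

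**Figure D4:**
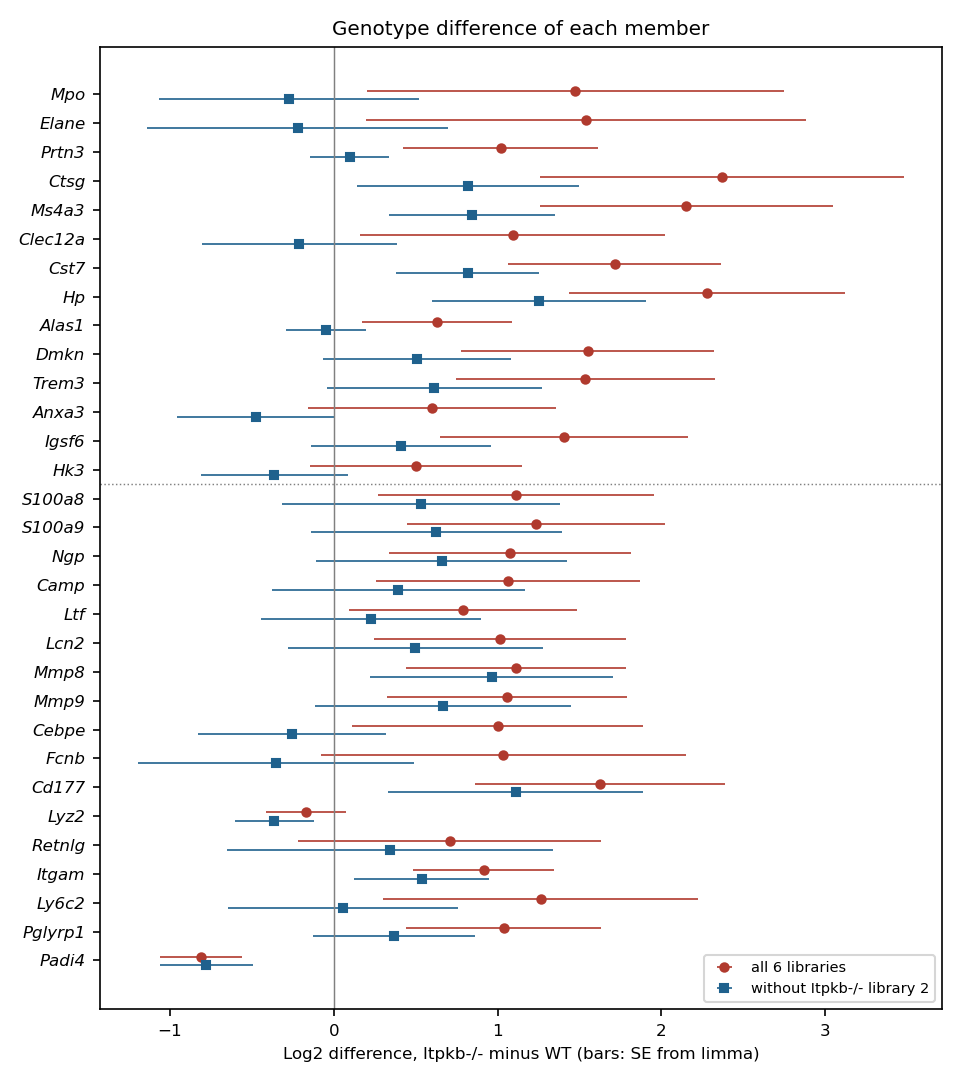
Log2 difference, Itpkb-/- minus wild type, of each of the 31 genes with its SE from limma, with all 6 libraries (red) and without Itpkb-/- library 2 (blue); early genes are above the dotted line. Without that library the values of Mpo and Elane move from 1.48 and 1.54 to -0.27 and -0.22, while those of Hp and Cd177 stay above 1.

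Leaving out Itpkb-/- library 2, 0 of 31 genes were called (limma; 1 had an unadjusted p under 0.05), against 2.22% of all genes tested (0.958% higher and 1.26% lower). The median difference was then 0.25 for early and 0.39 for late genes, and 8 of 14 early and 13 of 17 late genes had positive values. Mpo (-0.27), Elane (-0.22), Clec12a (-0.21), Anxa3 (-0.48), Hk3 (-0.36), Alas1 (-0.05), Cebpe (-0.25) and Fcnb (-0.35) changed sign. Hp (1.25, SE 0.65, limma adjusted p = 0.524) and Cd177 (1.11, SE 0.78, limma adjusted p = 0.662) stayed above 1 but did not pass. Without both libraries numbered 2 the medians were 0.61 and 0.51, 27 genes had positive values and 0 were called, against 1.16% of all genes (0.533% higher and 0.625% lower). Without Itpkb-/- library 3, the lowest library for 9 of the 31 genes (wild-type library 3 was the lowest for the other 22), 20 genes rose, 9 early and 11 late, and 0 fell, against 2.64% and 3.45% of all genes tested (6.09% in all). Mpo and Elane were not among them, with a limma adjusted p of 0.161 each. Without wild-type library 3, 0 were called, against 0.616% of all genes (0.308% in each direction).

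Other genes of the neutrophil lineage, with the members themselves left out of each list, partly followed the same orders. Their counts stand against the shares of all genes tested, 2.27% higher and 3.24% lower without the block and 9.15% and 8.97% with it (limma). In the list of primary granule biogenesis and storage, 1 of 11 genes rose and 0 fell, and 4 rose with the block. The 1 gene was Serpinb1a, an inhibitor of neutrophil elastase, at 128, 250.3 and 115 normalized CPM across Itpkb-/- libraries and 60.4, 91.6 and 44.7 across the wild type (log2 difference 1.28, SE 0.30, limma adjusted p = 0.0667). All Itpkb-/- libraries lay above all wild-type libraries, and the call was lost without wild-type replicate 3 (adjusted p = 0.285). Prss57, a serine protease of the same granules, was at 15.5, 90.6 and 7.86 across Itpkb-/- libraries and 8.46, 13.3 and 6.52 across the wild type, with library 2 of the Itpkb-/- group standing alone. Nkg7, a granule membrane protein gene, had a log2 difference of 1.14 (limma adjusted p = 0.153). Srgn, serglycin, the proteoglycan that holds proteases in granules, was at 353 to 530.4 across Itpkb-/- libraries and 347 to 363 across the wild type, and Ctsc, the activator of these proteases, at 38.5 to 57.7 and 40.8 to 44.2.

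Among secondary and tertiary granule genes outside the set, 0 of 10 tested genes passed (limma), and 5 rose with the replicate block, where 9.15% of all genes rose. At an unadjusted p under 0.05 there were 3 (limma), and 0 were called with edgeR and 3 with DESeq2. Chil3, a chitinase-like secreted protein, was at 216, 350.9 and 27.0 normalized CPM across Itpkb-/- libraries and 96.7, 56.3 and 18.2 across the wild type, the order of Camp and Ltf. Slpi, a protease inhibitor, and Hvcn1, a proton channel, had log2 differences of 1.26 and 1.05 and did not pass (limma adjusted p = 0.238 and 0.311). Of 20 tested genes of mature neutrophils outside the set 2 rose and 0 fell, and with the block 12 rose and 1 fell. Among those that rose without the block was Stfa3, a stefin with near-identical relatives in its gene cluster (log2 difference 2.03, limma adjusted p = 0.123). Stfa3 was listed at 0 reads in all wild-type libraries, so its fitted value is no bound. Without wild-type replicate 3 the call of Stfa3 was lost, at a limma adjusted p of 0.330. Cxcr2, the chemokine receptor that releases neutrophils from the marrow, was at 24.4, 20.8 and 4.72 across Itpkb-/- libraries and 12.9, 8.67 and 1.68 across the wild type, the order of Mmp9. The summed level of the mature neutrophil list did not share this order. It was 1223, 1167 and 952 across Itpkb-/- libraries and 1249, 933 and 1071 across the wild type, highest in wild-type library 1. Of the 25 genes found, 11 were highest in Itpkb-/- library 2 and 12 were lowest in a library numbered 3.

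None of the 6 subunit genes of the phagocyte oxidase passed (limma), and 2 rose with the block, Cybb and Ncf1, where 9.15% of all genes rose. Ncf1 alone had an unadjusted p under 0.05 (limma) and was called with DESeq2, and edgeR called 0. Each of the 6 was highest in Itpkb-/- library 2, and Cybb, its catalytic subunit, was at 81.7, 133 and 7.995 normalized CPM across Itpkb-/- libraries and 51.2, 26.6 and 9.68 across the wild type. Of 12 tested granulocyte transcription factors 0 passed (limma), and 1 fell with the block, where 8.97% of all genes fell. An unadjusted p under 0.05 was found for 1 (limma), and edgeR and DESeq2 called 0. Spi1, which encodes PU.1, was at 46.6, 113 and 55.0 across Itpkb-/- libraries and 54.7, 59.8 and 61.6 across the wild type. Gfi1, a repressor needed for neutrophil formation, was at 1.96, 32.2 and 6.16 across Itpkb-/- libraries and 8.95, 11.1 and 11.7 across the wild type. Cebpa, the factor C/EBP-alpha, was at 2.40, 13.2 and 2.36 and at 5.47, 6.87 and 1.86. For these 3 genes Itpkb-/- library 2 was the only Itpkb-/- library above all 3 wild-type libraries. The list as a whole did not share this order. Of 13 detected factors 6 were highest in that library, and 6 of 12 tested had a positive log2 difference. The summed level was 1468 there, 1680 in Itpkb-/- library 1 and 1593 in wild-type library 1. Among 9 growth factor receptors of granulopoiesis, Csf2rb and Csf2rb2 rose, with log2 differences of 2.01 and 2.19 (limma adjusted p = 0.00161 and 0.000656). They are close paralogs, and the split of reads between them is uncertain. Csf3r, the receptor of the granulocyte growth factor G-CSF, was at 39.2 to 70.5 across Itpkb-/- libraries and 47.4 to 61.8 across the wild type.

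Markers of other cells moved with the set only in part. All 15 LT-HSC markers were detected, at a summed 2459 to 3296 normalized CPM across Itpkb-/- libraries and 3951 to 4647 across the wild type, lowest in Itpkb-/- library 2, and 7 of the 15 fell (limma), where 3.24% of all genes tested fell. The 12 monocyte markers summed to 164, 171 and 71.4 in Itpkb-/- libraries 1 to 3 and to 120, 61.7 and 68.9 in wild-type libraries. Itpkb-/- libraries 1 and 2 were thus the highest and wild-type library 1 came next, as in Camp and Ltf, but wild-type library 2 was the lowest. All 11 tested had a positive log2 difference (median 0.71), against 50.2% of all genes. With the block 3 rose (limma), where 9.15% of all genes rose. The 7 eosinophil markers did not follow either stage, summing to 27.2, 333 and 87.3 in Itpkb-/- libraries 1 to 3 and to 282, 346 and 3.72 in wild-type libraries. Wild-type library 2 was the richest in eosinophil markers and Itpkb-/- library 1 among the poorest. The 9 macrophage markers summed to 14.7 to 79.6 and 23.5 to 33.1, highest in Itpkb-/- library 2, where Vcam1 made up 40.7. The 8 detected mast cell and basophil markers summed to 11.5 to 55.0 and 19.0 to 23.1, with Mcpt4 and Tpsb2 at 0. The 9 B cell markers summed to 31.8 to 36.8 and 30.6 to 38.8, mostly Cd79b, with Pax5 and Blk at 0, and the 9 T and NK cell markers to 7.61 to 11.0 and 14.0 to 17.7, with Cd3g, Klrd1 and Cd8a at 0. The 11 erythroid, 10 megakaryocyte and platelet, and 9 stromal and endothelial markers summed to 718 to 1234, 1570 to 2744 and 88.2 to 110 in Itpkb-/- and to 1080 to 1143, 1769 to 1909 and 61.1 to 77.3 in wild-type libraries, with Lepr at 0. Without the block 2 of 6 tested mast cell and basophil markers rose, 3 of 10 megakaryocyte markers rose and 1 fell, 1 of 11 erythroid markers rose and 1 fell, and 1 of 4 stromal markers rose (limma). No tested monocyte, macrophage, eosinophil, B cell or T and NK cell marker passed (limma), of 11, 4, 6, 1 and 3 tested; 2 had an unadjusted p under 0.05, and edgeR and DESeq2 called 0. The part of any of these cell types in the levels of the granule genes was not tested.

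**Figure D5:**
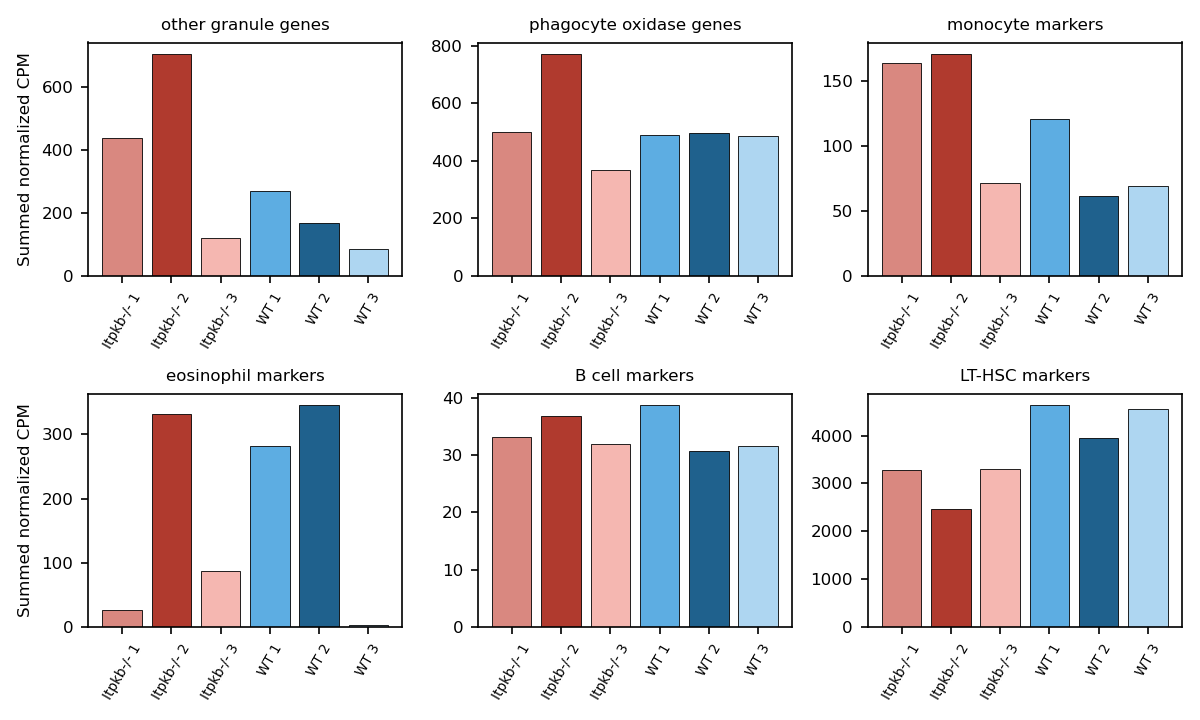
Summed normalized CPM of 6 gene lists outside the set in each library, with bars starting at 0 and red for Itpkb-/- and blue for wild-type libraries. Other granule genes are highest in Itpkb-/- library 2 (707) and lowest in wild-type library 3 (86.4), while eosinophil markers are high in Itpkb-/- library 2 and wild-type libraries 1 and 2.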

How the data were processed

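RNA sequencing libraries of sorted mouse LT-HSC, 3 Itpkb-/- and 3 wild-type, were compared from the deposited table of gene signal. Per the submitters' processing notes, CASAVA 1.8.2, cutadapt, TopHat2 2.0.8b on build mm10, Partek and edgeR were used, while the series design text gives TopHat 1.4.1. The sources used here leave unsaid which of these aligners made it. Libraries were made with NuGEN's Ovation V2 system, per the labels' protocols; it keeps no strand, and a gene cannot be told apart from its antisense partner. The deposited signal is a gene's read count divided by 1 factor per library: 100% of values lay within 0.01 read of a whole number, and the scaling equalled edgeR's TMM on the recovered reads. The reads carry no molecular identifiers, so the floor of 3 reads covers counting error only.

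The 12008 genes that reached 1 normalized CPM in 3 or more libraries entered limma 3.58.1 (R 4.3.3, trended variance) as log2(value + 1), a scale that understates changes of low genes. Adjustment was by Benjamini-Hochberg over all genes tested, with calls at 0.15, the limit in the series design text. Alternatives were edgeR 4.0.16 (robust quasi-likelihood) and DESeq2 1.42.0 on recovered reads, the pairing, other pseudocounts (0.5 and 4), filters and scaling, and leaving out each library. On simulated counts for Itpkb-/- against WT, limma (11860 genes) called 18.4% of those given a 1.5-fold change, 68.8% at 2-fold and 97.6% at 4-fold. Of the calls, 13.2% were false. The simulation gave genes the trended dispersion and no effect of library number. In the real fit Ctsg, with a log2 difference of 2.37, was not called (limma adjusted p = 0.339). These shares therefore do not carry over to the members.

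Deviations from genotype means correlated at 0.296, 0.268 and 0.284 across genes between same-numbered libraries, so the numbers were taken as pairs. The fit without the block stayed the main one. No 2 libraries of the same genotype repeated each other (chi-square per degree of freedom of 6.1 to 26.7). Libraries of different genotypes were not compared in this way. The members and gene lists were chosen with earlier results of these data known. All members were named, with values in every library for the genes that define each stage. From other lists, genes that passed and up to 3 with the largest differences at a mean of at least 4 normalized CPM could be named, and other genes whose values are given (Srgn, Ctsc, Cxcr2, Spi1, Cebpa, Csf3r) were chosen after their values were seen. Some genes of the other lists are not reported here. Levels per kilobase use the union of GENCODE M21 exons.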

Additional observations from a re-analysis of the deposited data

How the results depend on the processing

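The count of called members depended on the pairing and on single libraries. From 1 of 31 genes, the count became 25 with the replicate block, 12 with edgeR and the block (chosen after seeing the data), 3 with DESeq2 (Ctsg, Ms4a3 and Padi4), 0 with no filter and 0 without both libraries numbered 2. Leaving out 1 library gave 0 to 20, the highest without Itpkb-/- replicate 3 and 0 without Itpkb-/- replicate 2, wild-type replicate 2 or wild-type replicate 3. Over all genes 661 calls became 2176 with limma and the block, 2208 with edgeR and the block, 139 without both libraries numbered 2, and 74 (without wild-type replicate 3) to 837 without 1 library. The count of 17 members at least 2-fold higher in Itpkb-/- library 2 was 17 with pseudocounts of 0.5 and 4, no filter and median-of-ratios scaling, all chosen after seeing the data. The stage differences kept a positive sign, from 0.27 to 2.41 for early and 0.30 to 1.74 for late genes.

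Signs reversed for 10 members, none of them called in the main fit. Clec12a of these was called without Itpkb-/- replicate 3 (limma adjusted p = 0.136). With limma and the block Mpo, Elane, Fcnb and Retnlg of these were called, and with edgeR and the block Cebpe, Fcnb and Retnlg. Over the fits that leave out 1 library the range, from without Itpkb-/- replicate 2 to without Itpkb-/- replicate 3, was -0.27 to 3.03 for Mpo, -0.22 to 3.18 for Elane, -0.21 to 2.27 for Clec12a, -0.047 to 1.08 for Alas1, -0.48 to 1.38 for Anxa3, -0.36 to 1.33 for Hk3, -0.25 to 1.86 for Cebpe and -0.35 to 2.11 for Fcnb. Without both libraries numbered 2 they were Anxa3 (-0.24) and Hk3 (-0.32). Lyz2 was at 0.15 without Itpkb-/- replicate 3 and Retnlg at -0.41 without wild-type replicate 3 (up to 1.72 without Itpkb-/- replicate 3). Depth limits Dmkn, Cebpe and Trem3, which had 3 reads or fewer in at least 1 library.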
